A study of Mus musculus with 24 samples.

Results

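The genes described here are the keratins (Krt), uroplakins (Upk) and small proline-rich genes (Sprr) of the mouse, 72 of the 23955 gene symbols in the deposited count table. They were taken by symbol, as every Krt followed by a number with or without a lower-case letter, every Upk followed by a number, and every Sprr, with Krt20 left out. RNA was measured by stranded mRNA sequencing of mouse kidney in 24 libraries, 4 in each of 6 groups. Kidneys labelled PLD4-/- (KO) and PLD4+/+ (WT) were each sampled as controls (day 0), at day 5 and at day 10. The later kidneys had UUO, the tying off of 1 ureter, so that urine backs up into the kidney. The labels give no age, sex, strain, allele or surgery date. They also do not say that each library came from its own animal, so the p-values here measure the spread between these libraries.

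Total counts ran from 9800888 to 22542866 per library. CPM are counts scaled to the library's total over genes passing the filter on low counts described below, times its edgeR TMM factor. That factor was 0.764 to 0.870 in day 0 libraries and 0.976 to 1.22 in obstructed libraries. Pld4, the targeted gene, did not follow its label at day 0. There it had 6.70 to 12.6 CPM in KO libraries and 5.10 to 8.25 CPM in WT libraries. It had 13.4 to 32.6 CPM in KO and 46.6 to 50.9 CPM in WT at day 5, and 24.3 to 50.3 CPM in KO and 54.6 to 117 CPM in WT at day 10. The log2 difference, KO over WT, was 0.50 ± 0.29 (SE) at day 0, -1.25 ± 0.27 at day 5 and -1.13 ± 0.27 at day 10, with adjusted p = 0.438, 0.0724 and 0.0331 from edgeR's quasi-likelihood test. KO and WT therefore stand for the labels throughout. Kidney tubule markers (9 genes, among them Umod and Slc12a1) were present in every library. WT day 10 replicates 2 and 3 stood apart, with tubule markers at a summed 559 and 2162 CPM and neutrophil markers at 3591 and 6198 CPM, where the other 22 libraries had at least 5079.6 CPM of tubule markers and at most 26.7 CPM of neutrophil markers. For single members and list genes, the value without these 2 libraries is given where leaving them out changed a call. It is also given where a called WT day 10 value moved by over 1.5 times. Counts over a gene list use all libraries, and the counts without these 2 follow where they changed. That alternative was chosen after seeing the data.

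Keratins are the intermediate filament proteins of epithelial cells and assemble as pairs of an acidic type I and a basic type II chain, such as Krt18 with Krt8 in the simple epithelium of kidney tubules and Krt14 with Krt5 in the basal layer of stratified epithelium. Uroplakins are membrane proteins that tile the surface of the urothelium, the stratified lining of the renal pelvis, ureter and bladder, where Upk1a pairs with Upk2 and Upk1b with Upk3a. Small proline-rich proteins are cross-linked by transglutaminases into the envelope of stratified epithelial cells. In bulk kidney RNA, fewer cells of a type and less RNA per cell cannot be told apart.

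Promoters of small proline-rich genes are shown because Sprr1a and Sprr2f passed the test, and Sprr2d and Sprr2h were counted in few libraries, with that of Upk1a, which did not pass the test. The sequences are the 250 bases before the gene start in RefSeq, build GRCm38.p6, read 5′ to 3′ on the gene's own strand. They were chr3:92485882-92486131 (minus strand) for Sprr1a, chr3:92338890-92339139 (plus) for Sprr2d, chr3:92364937-92365186 (plus) for Sprr2f, chr3:92385435-92385684 (plus) for Sprr2h and chr7:30612735-30612984 (minus) for Upk1a. Capitals mark matches, on either strand, to TATAAA, the TATA box, and to TGANTCA, the site of AP-1.
Sprr1a: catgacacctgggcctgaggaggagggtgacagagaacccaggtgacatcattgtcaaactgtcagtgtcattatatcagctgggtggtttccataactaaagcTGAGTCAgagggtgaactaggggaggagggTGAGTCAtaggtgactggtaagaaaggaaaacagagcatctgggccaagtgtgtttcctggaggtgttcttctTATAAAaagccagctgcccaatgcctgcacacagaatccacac
Sprr2d: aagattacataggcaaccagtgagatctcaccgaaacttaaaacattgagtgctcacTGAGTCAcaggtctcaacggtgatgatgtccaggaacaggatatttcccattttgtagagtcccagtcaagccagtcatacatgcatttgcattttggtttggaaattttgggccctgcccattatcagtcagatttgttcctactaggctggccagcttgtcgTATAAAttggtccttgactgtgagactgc
Sprr2f: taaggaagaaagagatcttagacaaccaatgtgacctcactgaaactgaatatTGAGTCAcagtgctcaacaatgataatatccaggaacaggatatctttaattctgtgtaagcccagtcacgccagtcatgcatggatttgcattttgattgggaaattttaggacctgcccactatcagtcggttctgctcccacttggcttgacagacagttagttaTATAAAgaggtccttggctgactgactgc
Sprr2h: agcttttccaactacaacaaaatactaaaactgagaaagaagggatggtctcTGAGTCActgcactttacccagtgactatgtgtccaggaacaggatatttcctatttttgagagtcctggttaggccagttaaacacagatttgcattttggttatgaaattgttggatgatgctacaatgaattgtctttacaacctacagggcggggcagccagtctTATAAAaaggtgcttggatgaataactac
Upk1a: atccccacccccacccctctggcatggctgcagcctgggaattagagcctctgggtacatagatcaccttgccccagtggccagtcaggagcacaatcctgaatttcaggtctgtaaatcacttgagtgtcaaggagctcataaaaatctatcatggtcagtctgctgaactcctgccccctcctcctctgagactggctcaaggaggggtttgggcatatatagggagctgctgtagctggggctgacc

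Counted back from the gene start, TGANTCA began at -193 in Sprr2d, -197 in Sprr2f and -198 in Sprr2h, and TATAAA at -29 in all 3. In Sprr1a, TGANTCA began at -146 and -116 and TATAAA at -43. The Upk1a window held neither. Of 32536 distinct mouse promoters of the same length, 12.3% held TATAAA and 6.73% held TGANTCA. Among the 23 genes tested below, 14 had a promoter entry, of which 4 held TATAAA (Krt10, Krt12, Sprr1a and Sprr2f) and 2 held TGANTCA (Sprr1a and Sprr2f). Searched as well, but not marked, were CCACCC, the CACCC box, and AACNNGTT, a Grainyhead-like site. CCACCC was held by 28.1% of the mouse promoters and by 7 of the 14, among them Upk1a with 2 matches. AACNNGTT was held by 3.62% of the promoters and by 1 of the 14, Upk3bl. A match describes the letters only and is not shown to be a binding site.

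Of the 72 genes, 53 had at least 1 count in some library, and 23 passed edgeR's filter on low counts, which kept 15080 genes in all. Another 30 were counted but fell below the filter, and 19 had no count in any library. For these, no count allows at most 0.00792 CPM over the 24 libraries pooled, counting error only. Sprr2a1, Sprr2a2 and Krt85 are excepted, as they were listed with an FPKM above 0. The filter kept all 6 simple epithelial keratins (Krt7, Krt8, Krt18, Krt19, Krt23 and Krt80) and all 6 uroplakins (Upk1a, Upk1b, Upk2, Upk3a, Upk3b and Upk3bl). It kept 4 of 7 basal and stress keratins (Krt5, Krt14, Krt15 and Krt17), 3 of 12 keratins of differentiated stratified epithelium (Krt4, Krt10 and Krt12), 3 of 15 small proline-rich genes (Sprr1a, Sprr2f and Sprr2g) and Krt222. None of the 24 hair and inner root sheath keratins passed. A gene that passed through the obstructed libraries alone had to differ, so counts over the 23 genes describe them and are not support for a change of the families.

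Among the genes below the filter, Sprr2d had 576 counts in 8 libraries, Krt6a 242 in 10, Krt28 51 in 22, Krt16 45 in 13, Sprr2h 45 in 3, Sprr2e 37 in 11, Krt86 34 in 2, Krt42 26 in 10, Krt13 23 in 10, Krt78 18 in 11, Krt1 15 in 10 and Krt79 11 in 9. The other 18 had 1 to 9 counts: Krt2, Krt24, Krt76, Krt6b, Krt25, Krt26, Krt27, Krt33a, Krt36, Krt39, Krt75, Krt81, Krt83, Sprr1b, Sprr2b, Sprr2i, Sprr2j-ps and Sprr3. No count was found for the hair keratins Krt31, Krt32, Krt33b, Krt34, Krt35, Krt40, Krt71, Krt72, Krt73, Krt74, Krt82, Krt84 and Krt85, for the epidermal keratins Krt9 and Krt77, or for Sprr2a1, Sprr2a2, Sprr2k and Sprr4. The skin and hair markers Krtdap, Dsg1a and Lce1a1 were likewise at 0 in all 24 libraries, and the 7 skin and hair markers in the table summed to 15.0 to 31.1 CPM in every library, of which Tchh and Sbsn made up most.

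**Figure D1:**
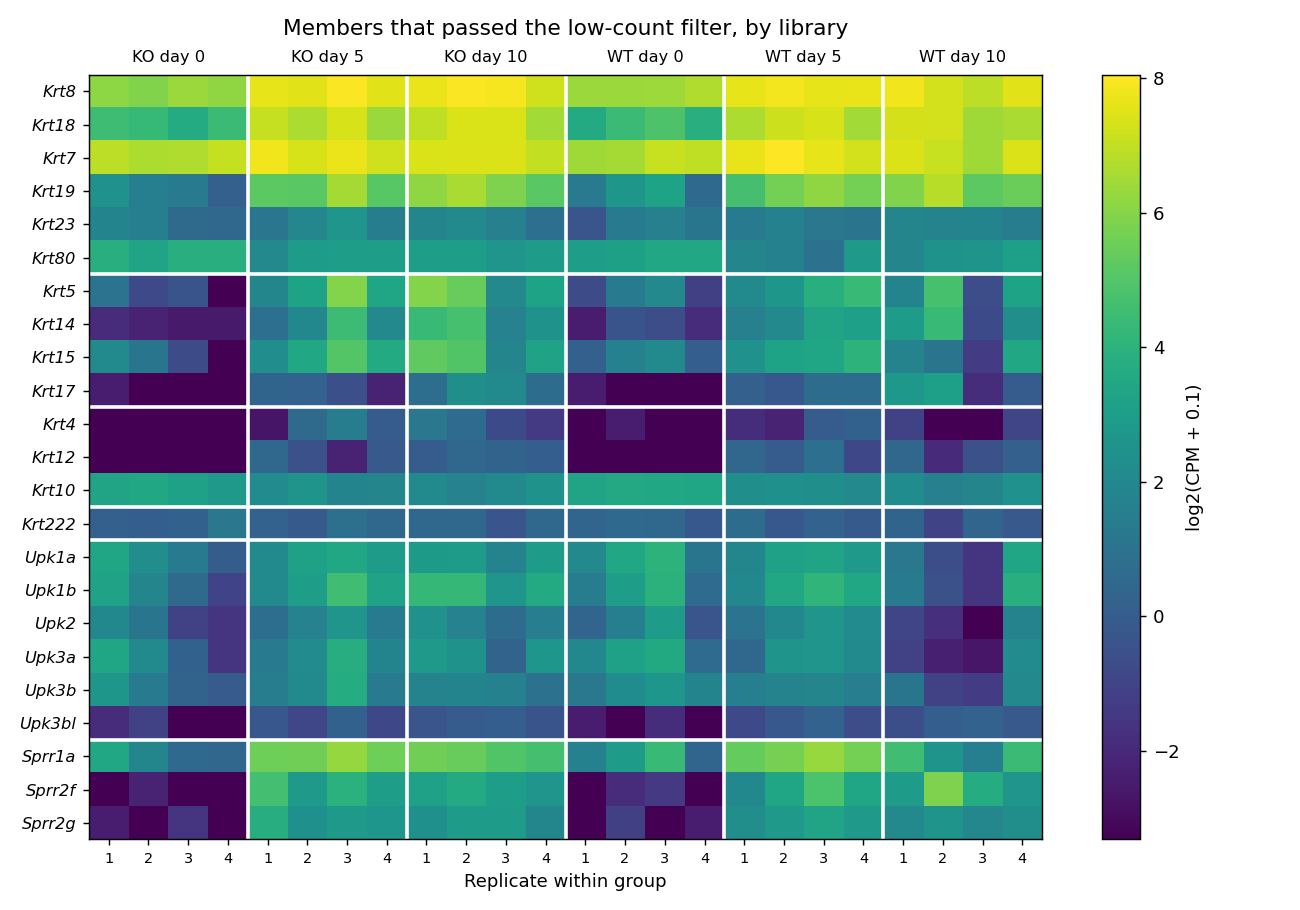
log2(CPM + 0.1) of the 23 genes that passed the filter (rows, in the order of their roles) in the 24 libraries (columns, by group and replicate number). Krt8, Krt18, Krt19, Sprr2f and Sprr2g are brighter in all obstructed libraries of a genotype than in its day 0 libraries, whereas the rows Upk1a to Upk3b differ mostly between libraries of the same group.

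Per transcript length, in the deposited FPKM (fragments scaled to transcript length and library size), Krt7 and Krt8 led the set in day 0 kidneys. Krt7 averaged 44.3 ± 7.59 FPKM in KO and 38.6 ± 10.7 FPKM in WT at day 0 (SD, n = 4 each), and Krt8 averaged 29.4 ± 4.95 FPKM in KO and 32.6 ± 5.91 FPKM in WT. Krt18 followed at 8.53 ± 2.001 FPKM in KO and 7.82 ± 3.41 FPKM in WT. In KO Krt7, Krt8 and Krt18 did not overlap between libraries, while in WT Krt7 and Krt8 did. In obstructed kidneys Krt8 had the highest mean, with 127 ± 21.98 FPKM in KO day 5, 136 ± 37.4 FPKM in KO day 10, 122 ± 11.6 FPKM in WT day 5 and 100.03 ± 32.4 FPKM in WT day 10, but its libraries overlapped those of Krt7 in all 4 groups. Krt7, Krt8, Krt18 and Krt19 together made up 67.8 to 90.1% of the FPKM of all 72 genes in KO day 0 libraries, 61.9 to 88.3% in WT day 0 libraries and 58.8 to 82.8% in the 16 obstructed libraries.

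The next question was which of these genes differed between obstructed and control kidneys of each genotype. In KO, 14 genes rose and 2 fell at day 5, and 14 rose and 2 fell at day 10. In WT, 13 rose and 2 fell at day 5, and 9 rose and 3 fell at day 10. Of all 15080 genes, 22.4% rose and 17% fell in KO at day 5, 28.3% rose and 26% fell in KO at day 10, 31% rose and 25.6% fell in WT at day 5, and 37.8% rose and 30.3% fell in WT at day 10, at an adjusted p under 0.05. The 23 genes had a median log2 fold change of 2.51 in KO at day 5, 2.77 in KO at day 10, 2.14 in WT at day 5 and 0.84 in WT at day 10, where the median over all genes tested was 0.01, 0.04, 0.08 and 0.12. These medians were the same with genes of 0 to 3 day 0 counts set at their bound or count ratio. That check could not move the medians, because those genes lie above the median either way. Both days of a genotype share its 4 day 0 libraries. Without WT day 10 replicates 2 and 3, 10 genes rose and 1 fell in WT at day 10, where 32.4% of all genes rose and 24.1% fell.

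**Figure D2:**
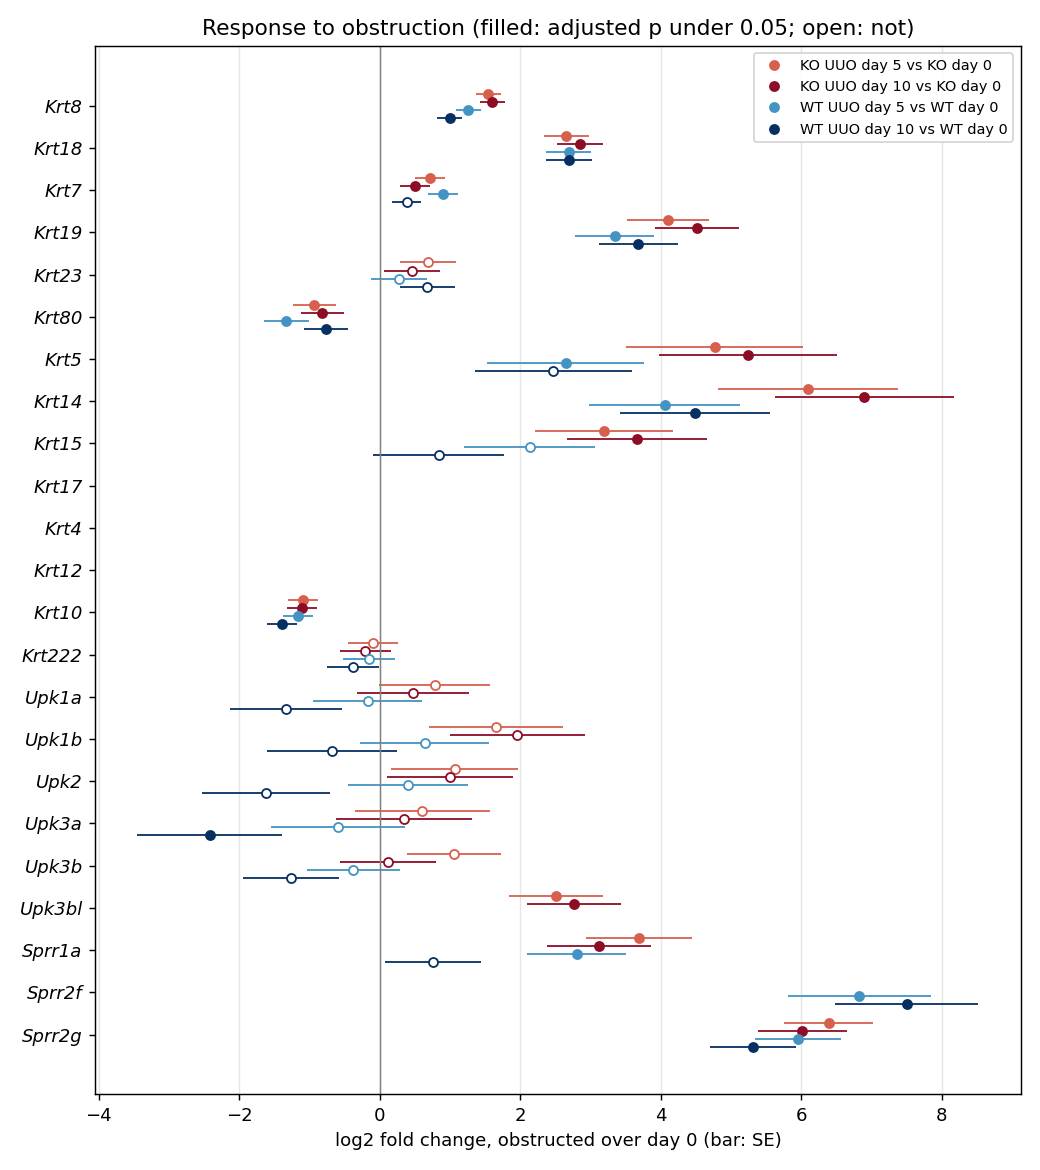
log2 fold change of obstructed over day 0 libraries for the tested genes, with bars of 1 SE (4 libraries a group, edgeR); filled points had an adjusted p under 0.05. Points are left out where the day 0 group held 0 to 3 counts, as for Krt4, Krt12 and Krt17. The keratins Krt8, Krt18 and Krt19 and Sprr2g lie right of 0 in all 4 comparisons, Krt10 and Krt80 lie left of it, and Upk1a, Upk1b, Upk2 and Upk3b lie on either side with open points.

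The simple epithelial keratins Krt8, Krt18 and Krt19 rose at both days in both genotypes. Krt8 is the type II keratin of simple epithelia. In KO libraries Krt8 stood at 69.5, 59.7, 81.04 and 72.2 CPM at day 0, 201, 185, 251 and 186 CPM at day 5 and 211, 257, 240.1 and 151 CPM at day 10. In WT libraries Krt8 stood at 79.99, 80.6, 82.5 and 104 CPM at day 0, 198, 232, 197 and 204 CPM at day 5 and 227, 156, 122 and 187 CPM at day 10. All obstructed libraries were above all day 0 libraries of their genotype, and the log2 fold change was 1.54 ± 0.18 (adjusted p = 1.68e-06) and 1.604 ± 0.18 (adjusted p = 5.95e-07) in KO at day 5 and day 10, and 1.26 ± 0.18 (adjusted p = 8.3e-06) and 0.998 ± 0.18 (adjusted p = 4.82e-05) in WT. In a transcript annotation (GENCODE M21), 26.9% of the 50-base words of Krt8 also occur in the pseudogene Krt8-ps, so its counts may be shared with that copy.

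Krt18, the type I partner of Krt8, rose more on the log2 scale. In KO libraries Krt18 had 22.8, 19.8, 12.5 and 21.4 CPM at day 0, 133, 99.6, 167 and 82.1 CPM at day 5 and 124, 168, 169 and 88.1 CPM at day 10. In WT libraries Krt18 had 12.3, 21.6, 29.6 and 14.3 CPM at day 0, 102, 144, 167 and 88.9 CPM at day 5 and 161, 156, 86.3 and 98.9 CPM at day 10. The groups again did not overlap, with log2 fold changes of 2.66 ± 0.32 (adjusted p = 2.79e-06) and 2.85 ± 0.32 (adjusted p = 7.75e-07) in KO at day 5 and day 10, and 2.69 ± 0.32 (adjusted p = 1.15e-06) and 2.69 ± 0.32 (adjusted p = 4.87e-07) in WT. The ratio of Krt8 to Krt18 in FPKM, taken within each library, was 2.70 to 5.98 in KO at day 0, 1.36 to 2.09 in KO at day 5 and 1.29 to 1.54 in KO at day 10. In WT it was 2.62 to 6.80 at day 0, 1.13 to 2.10 at day 5 and 0.900 to 1.72 at day 10. Every obstructed library thus had a lower ratio of Krt8 to Krt18 than every day 0 library.

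Krt19, a type I keratin of ducts and of the urothelium, had the largest fold change of the simple keratins. In KO libraries Krt19 had 5.24, 2.86, 2.36 and 1.01 CPM at day 0, 36.5, 35.7, 90.4 and 33.9 CPM at day 5 and 72.4, 96.1, 58.4 and 35.1 CPM at day 10. In WT libraries Krt19 had 2.42, 6.46, 9.51 and 1.38 CPM at day 0, 26.1, 51.4, 71.8 and 51.1 CPM at day 5 and 59.4, 112, 36.7 and 44.9 CPM at day 10. No obstructed library reached down to the day 0 range of its genotype, and KO day 5 replicate 3 and WT day 10 replicate 2 were the highest of their groups. The log2 fold change was 4.11 ± 0.59 (adjusted p = 1.91e-05) and 4.52 ± 0.595 (adjusted p = 4.36e-06) in KO at day 5 and day 10, and 3.34 ± 0.56 (adjusted p = 5.42e-05) and 3.68 ± 0.56 (adjusted p = 9.35e-06) in WT.

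Krt7, a type II keratin of collecting ducts and urothelium, was the most abundant member at day 0 and changed less. In KO libraries Krt7 had 122, 101, 103 and 131 CPM at day 0, 221, 163, 212 and 151 CPM at day 5 and 168, 176, 173 and 129 CPM at day 10. In WT libraries Krt7 had 86.6, 92.2, 138 and 126 CPM at day 0, 203, 265, 200.4 and 155 CPM at day 5 and 178, 135, 87.3 and 177 CPM at day 10. The log2 fold change was 0.71 ± 0.21 (adjusted p = 0.0117) in KO and 0.896 ± 0.21 (adjusted p = 0.00144) in WT at day 5, with all obstructed libraries above day 0. The day 10 value was 0.503 ± 0.21 (adjusted p = 0.0498) in KO, a call lost in 16 of 34 alternative settings (adjusted p 0.00048 to 0.118), and 0.38 ± 0.21 (adjusted p = 0.114) in WT, and the groups overlapped in both genotypes. The WT day 10 value was 0.71 (adjusted p = 0.00777) without WT day 10 replicates 2 and 3.

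**Figure D3:**
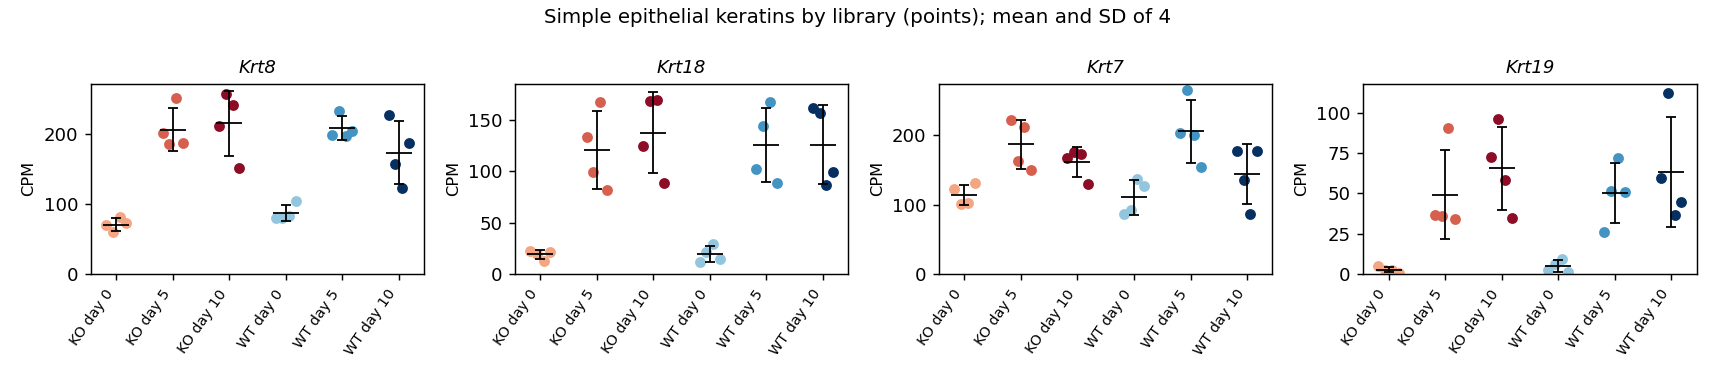
CPM of Krt8, Krt18, Krt7 and Krt19 in each library (points, 4 a group) with the group mean and SD (bars), on axes that start at 0. Krt8, Krt18 and Krt19 of all obstructed libraries lie above the day 0 libraries of their genotype, and the Krt7 groups touch at day 10.

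Krt80, a type II keratin found in many epithelia, fell. In KO libraries Krt80 had 13.9, 10.03, 14.2 and 14.3 CPM at day 0, 3.96, 7.397, 8.21 and 7.98 CPM at day 5 and 8.17, 8.03, 5.97 and 7.63 CPM at day 10. In WT libraries Krt80 had 8.301, 8.76, 11.3 and 11.3 CPM at day 0, 3.51, 3.13, 1.87 and 7.09 CPM at day 5 and 3.51, 5.48, 5.87 and 8.47 CPM at day 10. Its log2 fold change was -0.93 ± 0.31 (adjusted p = 0.0213) and -0.82 ± 0.31 (adjusted p = 0.0295) in KO at day 5 and day 10, and -1.33 ± 0.32 (adjusted p = 0.00145) and -0.77 ± 0.31 (adjusted p = 0.0339) in WT. In CPM the groups overlapped in the last comparison only, whereas in deposited FPKM they overlapped in all 4. The lowest day 0 library had 2.99 FPKM in KO and 2.03 FPKM in WT. The highest at day 5 and day 10 had 4.05 and 4.07 FPKM in KO, and 3.05 and 3.42 FPKM in WT. The calls were lost in 5 and 7 of 34 alternative settings in KO at day 5 and day 10, and in 1 and 9 in WT (highest adjusted p 0.414, 0.653, 0.0737 and 0.734). Those at WT day 10 included the fit without WT day 10 replicates 2 and 3, at -0.703 (adjusted p = 0.126). On deposited FPKM with a pseudocount of 1 the fold changes were -0.28, -0.18, -0.53 and -0.15, and the calls in KO and at WT day 10 were among those lost. On that scale the median of all genes was 0.47 to 0.54 in the 4 comparisons, where edgeR's was 0.01 to 0.12. Krt23, a type I keratin, had 0.692 to 6.08 CPM over all libraries, and its fold changes of 0.69, 0.46, 0.28 and 0.68 in the same order did not pass the test.

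Basal keratins rose as well, with wide spread between the libraries of a group. Krt5, which marks the basal layer of stratified epithelium, had in KO libraries 1.89, 0.477, 0.686 and 0 CPM at day 0, 3.67, 9.72, 60.7 and 10.1 CPM at day 5 and 60.4, 42.6, 3.98 and 9.68 CPM at day 10. In WT libraries Krt5 had 0.519, 2.47, 3.95 and 0.344 CPM at day 0, 4.101, 6.49, 14.4 and 20.5 CPM at day 5 and 3.37, 26.9, 0.544 and 9.47 CPM at day 10. KO day 5 replicate 3 and KO day 10 replicates 1 and 2 were far above the rest of their groups, and at WT day 10 replicates 1 and 3 lay within the day 0 range. The log2 fold change was 4.77 ± 1.26 (adjusted p = 0.0054) and 5.24 ± 1.27 (adjusted p = 0.00174) in KO at day 5 and day 10, 2.65 ± 1.12 (adjusted p = 0.0486) in WT at day 5 and 2.47 ± 1.11 (adjusted p = 0.0545) in WT at day 10. The call in WT at day 5 was lost in 12 of 34 alternative settings (adjusted p 0.00926 to 0.117).

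Krt14, the type I partner of Krt5, was close to 0 at day 0. In KO libraries Krt14 had 0.172, 0.119, 0.0762 and 0.07795 CPM at day 0, 1.69, 3.92, 22.4 and 4.02 CPM at day 5 and 20.3, 26.6, 3.23 and 5.69 CPM at day 10. In WT libraries Krt14 had 0.0865, 0.6802, 0.538 and 0.172 CPM at day 0, 2.97, 3.95, 9.74 and 8.36 CPM at day 5 and 7.68, 20.8, 0.484 and 4.87 CPM at day 10. The groups overlapped at WT day 10 only, through replicate 3. The log2 fold change was 6.098 ± 1.28 (adjusted p = 0.000946) and 6.898 ± 1.27 (adjusted p = 0.000162) in KO at day 5 and day 10, and 4.06 ± 1.07 (adjusted p = 0.0033) and 4.49 ± 1.07 (adjusted p = 0.000945) in WT. Of its 50-base words, 13.9% also occur in another gene, most of them in Krt16 or Krt17.

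Krt15, another type I keratin of basal cells, had in KO libraries 4.12, 2.03, 0.533 and 0 CPM at day 0, 4.61, 10.8, 32.3 and 12.2 CPM at day 5 and 38.9, 31.4, 3.55 and 9.34 CPM at day 10. In WT libraries Krt15 had 1.04, 3.06, 4.31 and 0.945 CPM at day 0, 5.35, 9.44, 10.3 and 16.002 CPM at day 5 and 3.32, 1.98, 0.302 and 11.1 CPM at day 10. It rose in KO, by 3.19 ± 0.98 (adjusted p = 0.014) at day 5 and 3.66 ± 0.99 (adjusted p = 0.00405) at day 10, although KO day 10 replicate 3 lay within the day 0 range. Without KO day 5 replicate 3 the day 5 value was 2.503 (adjusted p = 0.0595; 0.0012 to 0.0595 over 34 alternatives). In WT its values were 2.14 ± 0.93 (adjusted p = 0.056) at day 5 and 0.84 ± 0.93 (adjusted p = 0.433) at day 10. In the fit without WT day 10 replicates 2 and 3, which changes the estimated spread of all groups, they were 2.18 (adjusted p = 0.0285) and 1.65 (adjusted p = 0.146).

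Krt17, a keratin of basal cells that is induced by injury in mouse skin, had 1 count over the 4 KO day 0 libraries and 1 over the 4 WT day 0 libraries. It had 20, 20, 10 and 2 counts in KO at day 5, and 28, 84, 80 and 27 in KO at day 10. In WT it had 17, 13, 22 and 34 counts at day 5, and 138, 167, 3 and 17 at day 10. Obstructed libraries were all above day 0, at a ratio of CPM of 34.2 (95% counting interval 5.88 to 1377) and 144 (25.5 to 5697) in KO at day 5 and day 10, and of 56.5 (9.87 to 2255) and 197 (35.0 to 7788) in WT. Each of the 4 rises passed edgeR's test (adjusted p = 0.0168, 0.000253, 0.00298 and 6.06e-05), and the 2 at day 5 were lost on log2(FPKM + 1), where Krt17 is close to the pseudocount.

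The stress keratins Krt6a, Krt6b and Krt16 had no count at day 0 and stayed below the filter. Krt16 had 1, 1, 3 and 0 counts in KO at day 5, 4, 6, 1 and 1 in KO at day 10, 0, 1, 1 and 5 in WT at day 5, and 0, 17, 1 and 3 in WT at day 10. Krt6a had 0, 1, 8 and 1 counts in KO at day 5, 6, 4, 0 and 0 in KO at day 10, 0, 0, 2 and 5 in WT at day 5, and 0, 212, 2 and 1 in WT at day 10. WT day 10 replicate 2 thus held 212 of the 242 Krt6a counts. Words of 50 bases shared with other genes made up 45.7% of Krt6a, 50.1% of Krt6b and 37.6% of Krt16, so counts may be split among these copies.

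Among keratins of differentiated epithelium, Krt4 and Krt12 were counted almost only with obstruction, and Krt10 fell. Krt4, a keratin of wet stratified linings such as the esophagus, had no count in KO day 0 libraries and 1 in WT day 0 libraries. It had 1, 26, 46 and 16 counts in KO at day 5 and 37, 25, 9 and 5 in KO at day 10, which is at least 19.5-fold and 16.6-fold higher against a floor of 3 counts over the day 0 group (adjusted p = 0.00536 and 0.00464). In WT it had 3, 2, 13 and 23 counts at day 5, at a ratio of 26.9 (4.57 to 1089; adjusted p = 0.0341, lost in 8 of 30 alternatives), and 8, 0, 0 and 8 at day 10, at a ratio of 9.68 (1.503 to 406; adjusted p = 0.184). The zeros at day 10 were WT replicates 2 and 3.

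Krt12, known as the keratin of the corneal epithelium, had no count in any day 0 library and 1 or more in all 16 obstructed libraries. It had 22, 11, 2 and 14 counts in KO at day 5, 15, 22, 21 and 17 in KO at day 10, 21, 15, 24 and 10 in WT at day 5, and 26, 3, 10 and 19 in WT at day 10. Against the floor it was at least 10.7-fold and 16.4-fold higher in KO at day 5 and day 10, and at least 15.3-fold and 11.7-fold higher in WT (adjusted p = 0.00191, 0.000358, 0.000365 and 0.000504). None of its 50-base words occurs in another gene, but the gene A830036E02Rik overlaps its exons on the other strand, and whether the counting used strand is not given in the sources used here.

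Krt10, the type I keratin of suprabasal epidermis, fell. In KO libraries Krt10 had 9.96, 10.98, 9.06 and 6.86 CPM at day 0, 4.43, 5.91, 3.37 and 3.56 CPM at day 5 and 4.29, 3.25, 4.09 and 5.47 CPM at day 10. In WT libraries Krt10 had 10.03, 11.4, 11.1 and 10.2 CPM at day 0, 4.99, 5.19, 4.91 and 3.96 CPM at day 5 and 4.46, 2.99, 3.51 and 5.29 CPM at day 10. In CPM, every obstructed library was below every day 0 library of its genotype, with log2 fold changes of -1.09 ± 0.21 (adjusted p = 0.000463) and -1.105 ± 0.21 (adjusted p = 0.000224) in KO at day 5 and day 10, and -1.17 ± 0.21 (adjusted p = 0.00012) and -1.39 ± 0.21 (adjusted p = 8.65e-06) in WT. Over 34 alternative settings no call was lost, but the fold changes shrank to -0.35, -0.32, -0.36 and -0.51 at the least, in this order. In deposited FPKM the KO groups overlapped, with at least 2.07 FPKM at day 0 and at most 2.41 and 2.20 FPKM at day 5 and day 10. The WT groups did not, with at least 2.30 FPKM at day 0 and at most 2.04 FPKM later. Krt10 also has an overlapping gene on the other strand, Gm11940, as do Krt5, Krt7, Krt8 and Krt80. Krt222, a keratin-like gene without a known role in kidney, had 0.406 to 2.18 CPM over all libraries and fold changes of -0.10 to -0.38 that did not pass the test.

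Of the 6 uroplakins, 4 did not pass the test in any comparison with day 0 when all libraries were used. Upk1a, a tetraspanin of the urothelial plaque, had in KO libraries 10.6, 4.66, 2.51 and 0.935 CPM at day 0, 4.26, 8.94, 10.98 and 7.75 CPM at day 5 and 7.23, 7.67, 3.33 and 7.57 CPM at day 10. In WT libraries Upk1a had 3.98, 11.1, 16.4 and 2.06 CPM at day 0, 3.69, 9.03, 10.02 and 7.05 CPM at day 5 and 2.23, 0.558, 0.242 and 10.2 CPM at day 10. Libraries of the same group differed more than the groups did: at day 0 alone Upk1a ran from 0.935 to 10.6 CPM in KO and from 2.06 to 16.4 CPM in WT. Its log2 fold change was 0.78 ± 0.79 and 0.47 ± 0.79 in KO at day 5 and day 10, and -0.17 ± 0.78 and -1.34 ± 0.799 in WT (adjusted p 0.142 to 0.862).

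Upk1b, the tetraspanin that pairs with Upk3a, had fold changes of 1.65 ± 0.96, 1.96 ± 0.96, 0.64 ± 0.92 and -0.68 ± 0.93 in the same order (adjusted p 0.0895 to 0.566), and the KO day 10 value was 1.98 (adjusted p = 0.0395) in the fit without WT day 10 replicates 2 and 3. Upk2, the partner of Upk1a, had 1.07 ± 0.902, 1.001 ± 0.903, 0.404 ± 0.86 and -1.62 ± 0.92 (adjusted p 0.122 to 0.702). Upk3b, which is also known from mesothelium, had 1.06 ± 0.67, 0.12 ± 0.68, -0.38 ± 0.67 and -1.27 ± 0.68 (adjusted p 0.107 to 0.897). None of the 3 passed the test with all libraries, like Upk1a.

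Upk3a, the single-span partner of Upk1b, fell in WT at day 10 alone. In KO libraries Upk3a had 10.3, 4.06, 1.07 and 0.234 CPM at day 0, 2.51, 4.42, 13.3 and 3.45 CPM at day 5 and 7.05, 5.43, 1.13 and 6.21 CPM at day 10. In WT libraries Upk3a had 3.89, 9.01, 11.9 and 1.46 CPM at day 0, 1.31, 5.8996, 5.94 and 4.23 CPM at day 5 and 0.379, 0.101, 0.0605 and 4.34 CPM at day 10. The log2 fold change at WT day 10 was -2.42 ± 1.03 (adjusted p = 0.0427), the groups overlapped through replicate 4, and the call was lost in 15 of 34 alternatives. Without replicates 2 and 3, it was -1.46 (adjusted p = 0.264, which was the highest of a range of 0.000828 to 0.264 over the alternatives).

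Upk3bl, an Upk3-like gene outside the urothelial plaque, rose. In KO libraries Upk3bl had 0.172, 0.358, 0 and 0 CPM at day 0, 0.758, 0.442, 1.06 and 0.453 CPM at day 5 and 0.705, 0.885, 0.968 and 0.683 CPM at day 10. In WT libraries Upk3bl had 0.0865, 0, 0.179 and 0 CPM at day 0, 0.475, 0.767, 1.11 and 0.546 CPM at day 5 and 0.569, 0.964, 1.09 and 0.794 CPM at day 10. The groups did not overlap, and the log2 fold change in KO was 2.51 ± 0.67 (adjusted p = 0.00606) at day 5 and 2.77 ± 0.66 (adjusted p = 0.00157) at day 10. In WT, with 3 counts over the day 0 group, the ratio was 10.7 (3.46 to 53.8) at day 5 and 12.9 (4.22 to 64.2) at day 10 (adjusted p = 0.000792 and 0.000192).

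The uroplakins of the urothelial plaque differed widely between libraries of a group. The summed CPM of Upk1a, Upk1b, Upk2 and Upk3a was 33.9, 14.2, 5.41 and 1.79 in KO day 0 libraries, 12.7, 24.3, 54.1 and 23.1 in KO day 5 and 38.3, 35.2, 11.9 and 29.1 in KO day 10. It was 11.8, 31.3, 51.3 and 5.67 in WT day 0, 10.8, 30.1, 39.2 and 26.8 in WT day 5 and 5.499, 1.47, 0.544 and 31.96 in WT day 10. How much urothelium each kidney sample held was not recorded in the labels, and its part in these values was not tested. The 6 urothelial markers other than members summed to 29.9 to 67.1 CPM in KO at day 0 and 57.1 to 73.3 CPM in WT at day 0, and to 77.7 to 185 CPM in the obstructed libraries. Elf3 made up most of these counts, with 28419 over all libraries, against 4464 for Snx31, the next highest. The sum therefore mainly follows Elf3. In KO at day 10, 4 of the 6 rose and none fell, where 28.3% of all genes rose and 26% fell. In WT at day 10, Elf3 alone rose and Snx31 alone fell, where 37.8% of all genes rose and 30.3% fell.

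Krt5, Krt19, Sprr1a and Upk1b were each set against Upk1a of the same library. The summed CPM of Krt5, Krt14 and Krt15 was 6.18, 2.63, 1.29 and 0.07795 in KO day 0, 9.97, 24.4, 115 and 26.4 in KO day 5, and 119.6, 101, 10.8 and 24.7 in KO day 10. It was 1.64, 6.21, 8.79 and 1.46 in WT day 0, 12.4, 19.9, 34.4 and 44.8 in WT day 5, and 14.4, 49.6, 1.33 and 25.4 in WT day 10. The ratio of Krt5 to Upk1a was at most 0.273 in KO and 0.240 in WT at day 0, and at least 0.719 in every obstructed library. For Krt19 over Upk1a the day 0 ratio was 0.496 to 1.08 in KO and 0.579 to 0.667 in WT, and the obstructed ratio was at least 3.99 in KO and 4.42 in WT. Sprr1a over Upk1a was 0.545 to 1.33 in KO and 0.583 to 1.25 in WT at day 0, and at least 3.40 in KO and 2.14 in WT with obstruction. Upk1b over Upk1a was 0.417 to 0.870 in KO and 0.674 to 0.951 in WT at day 0, and at least 0.877 in KO and 1 in WT with obstruction. So within each genotype the libraries at day 0 and those with obstruction did not overlap in any of these ratios, Upk1b over Upk1a included. Other uroplakin ratios did not all separate in this way. Upk2 over Upk1a overlapped in KO (0.152 to 0.436 at day 0, 0.328 to 0.554 at day 5) and in WT (0.262 to 0.448, 0.431 to 0.613). Upk3a over Upk1a overlapped in KO (0.250 to 0.976 at day 0, 0.445 to 1.22 at day 5). In WT it was lower with obstruction, at least 0.708 at day 0 and at most 0.654 later. The ratios were chosen with earlier results known and carry no test.

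**Figure D4:**
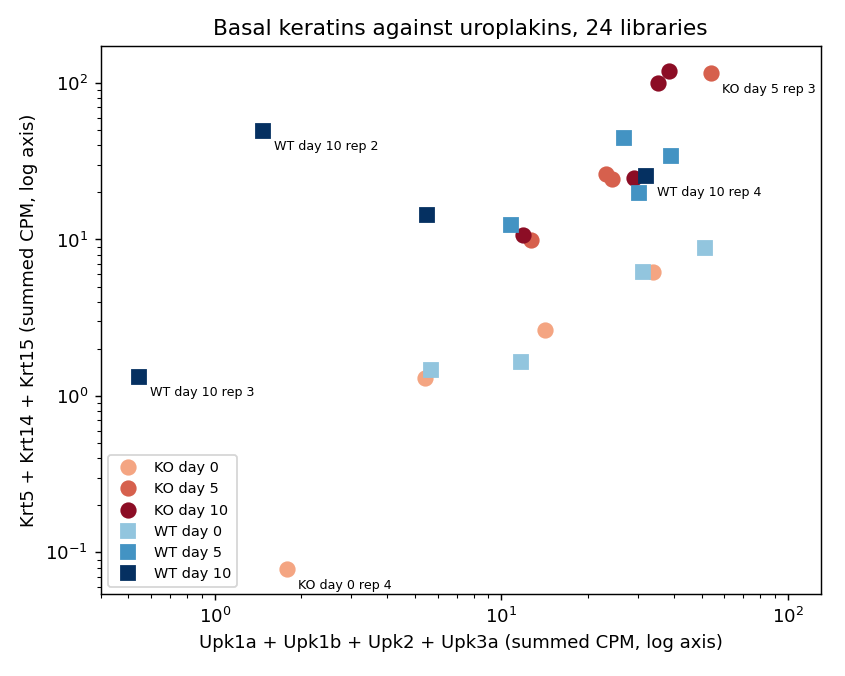
Summed CPM of the basal keratins Krt5, Krt14 and Krt15 (vertical) against summed CPM of the uroplakins Upk1a, Upk1b, Upk2 and Upk3a (horizontal) in 24 libraries, both axes logarithmic, circles for KO and squares for WT. At a like uroplakin level the obstructed libraries lie above the day 0 libraries; WT day 10 replicates 2 and 3 have the lowest uroplakin sums, at 1.47 and 0.544 CPM.

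Of the small proline-rich genes tested, Sprr2f and Sprr2g rose in all 4 comparisons with day 0. Sprr2f had no count in 3 of 4 KO day 0 libraries and in 2 of 4 WT day 0 libraries. In KO libraries Sprr2f had 0, 0.119, 0 and 0 CPM at day 0, 25.3, 6.9001, 15.4 and 8.04 CPM at day 5 and 8.93, 12.2, 8.12 and 5.92 CPM at day 10. In WT libraries Sprr2f had 0, 0.17004, 0.269 and 0 CPM at day 0, 3.86, 10.4, 28.1 and 10.6 CPM at day 5 and 7.68, 57.8, 13.1 and 5.98 CPM at day 10. Groups did not overlap, and WT day 10 replicate 2 was far above the rest of its group. The ratio over KO day 0, which held 1 count, was 633 at day 5 and 403 (72.0 to 15928) at day 10, and the log2 fold change in WT was 6.83 ± 1.02 (adjusted p = 1.74e-05) at day 5 and 7.51 ± 1.02 (adjusted p = 2.36e-06) at day 10. The last value was 5.903 (adjusted p = 1.8e-05) without WT day 10 replicates 2 and 3. Both KO rises passed the test (adjusted p = 1.57e-05 and 2.71e-05). As printed above, the Sprr2f window holds TGAGTCA and TATAAA at nearly the same distances from the start as Sprr2d and Sprr2h, which had counts in 8 and 3 of the 24 libraries.

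Sprr2g, a neighbour in the same family, was steadier within groups. In KO libraries Sprr2g had 0.0859, 0, 0.229 and 0 CPM at day 0, 13.3, 5.08, 6.97 and 6.22 CPM at day 5 and 5.17, 7.73, 7.74 and 3.64 CPM at day 10. In WT libraries Sprr2g had 0, 0.3401, 0 and 0.0859 CPM at day 0, 4.87, 6.96, 9.88 and 7.09 CPM at day 5 and 3.98, 5.89, 3.69 and 4.87 CPM at day 10. All obstructed libraries were at or above 3.64 CPM and all day 0 libraries at or below 0.340 CPM. Its log2 fold change was 6.39 ± 0.63 (adjusted p = 2.85e-07) and 6.01 ± 0.63 (adjusted p = 3.1e-07) in KO at day 5 and day 10, and 5.95 ± 0.61 (adjusted p = 1.59e-07) and 5.31 ± 0.62 (adjusted p = 3.35e-07) in WT.

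Sprr1a, which is also known as an injury-induced gene in mouse nerve and heart, rose in 3 of the 4 comparisons. In KO libraries Sprr1a had 10.7, 3.58, 1.37 and 1.25 CPM at day 0, 46.8, 48.5, 76.1 and 46.7 CPM at day 5 and 47.3, 42.5, 30.8 and 25.7 CPM at day 10. In WT libraries Sprr1a had 3.11, 7.397, 20.5 and 1.203 CPM at day 0, 41.4, 53.04, 79.5 and 50.3 CPM at day 5 and 23.8, 5.89, 2.903 and 21.7 CPM at day 10. The day 5 groups of both genotypes and KO day 10 did not overlap day 0, while WT day 10 did. The log2 fold change was 3.69 ± 0.75 (adjusted p = 0.000698) and 3.12 ± 0.74 (adjusted p = 0.00144) in KO at day 5 and day 10, 2.803 ± 0.71 (adjusted p = 0.00236) in WT at day 5, and 0.76 ± 0.68 (adjusted p = 0.329) in WT at day 10. Leaving out WT day 10 replicates 2 and 3, the last value was 1.54 (adjusted p = 0.0549).

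Other members of the Sprr2 family were seen mainly in WT day 10 replicate 2. Sprr2d had 11, 532, 21 and 0 counts in the WT day 10 libraries, and 12 counts in all other libraries together. Sprr2h had 43 of its 45 counts and Sprr2e 25 of its 37 in that replicate. Krt86, a hair keratin, had 19 counts in WT day 10 replicate 2 and 15 in replicate 3, and none elsewhere, and it shares 43.3% of its 50-base words with other genes. Both libraries are those with neutrophil markers at 3591 and 6198 CPM; the part of these cells in the counts was not tested. Skin and hair markers summed to 15.0 and 17.5 CPM in these 2 libraries and to 17.1 to 31.1 CPM in the other 22.

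Sprr2a1 and Sprr2a2 had no count in any library but were listed with an FPKM above 0 in all 24. Sprr2a1 had 1.32, 0.526, 0.138 and 0.0873 FPKM in KO day 0, 1.72, 3.27, 10.996 and 3.62 in KO day 5, and 12.1, 9.16, 0.9297 and 3.62 in KO day 10. It had 0.345, 1.01, 3.32 and 0.157 FPKM in WT day 0, 2.13, 3.74, 9.14 and 6.68 in WT day 5, and 0.563, 6.79, 0.311 and 4.58 in WT day 10. Only KO day 5 lay wholly above the day 0 libraries of its genotype. The values of Sprr2a2 were nearly the same in each library. In the annotation 96.3% of the 50-base words of Sprr2a1 and 96.5% of those of Sprr2a2 occur in another gene, most of them in each other, so their counts and FPKM are uncertain.

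**Figure D5:**
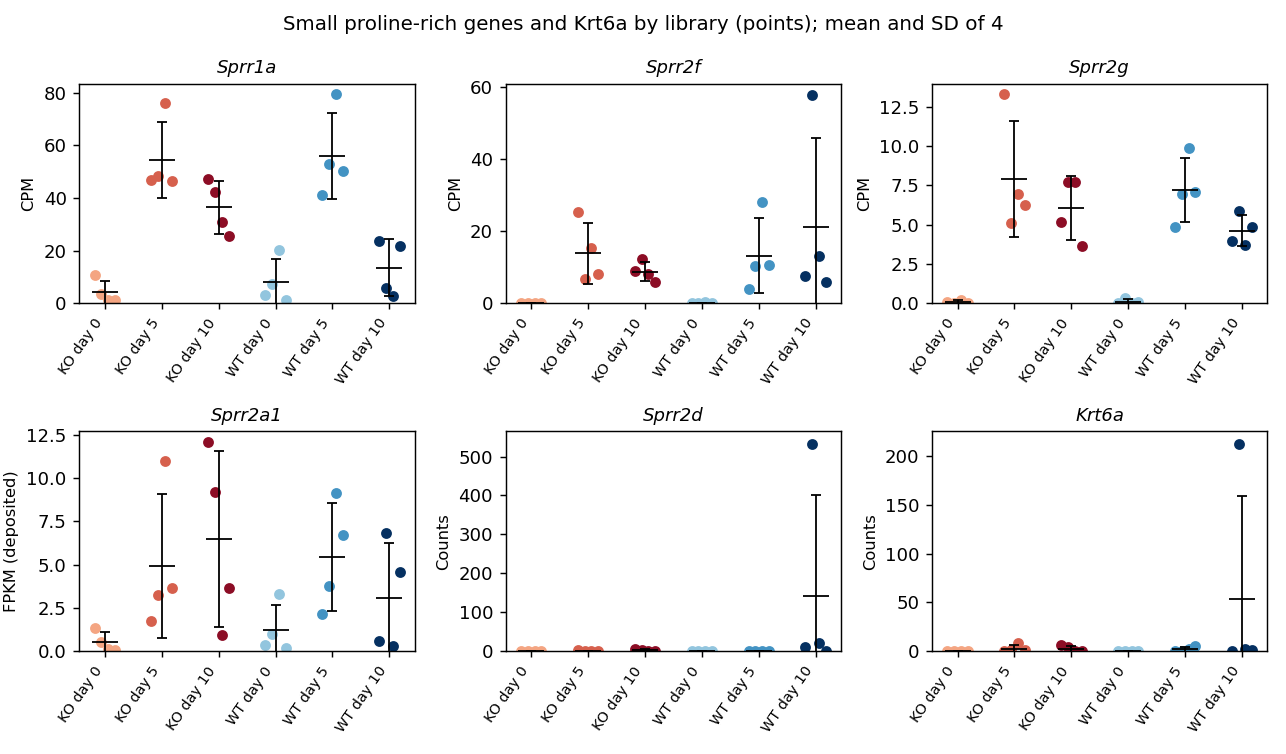
Values per library (points, 4 a group) with group mean and SD (bars) on axes that start at 0: CPM of Sprr1a, Sprr2f and Sprr2g, deposited FPKM of Sprr2a1, and raw counts of Sprr2d and Krt6a. Sprr2f and Sprr2g of obstructed libraries lie above day 0 in both genotypes, and 532 of the Sprr2d counts and 212 of the Krt6a counts are in WT day 10 replicate 2.

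Day 10 was then set against day 5 within each genotype. No member passed edgeR's test in KO, where 0.0199% of all genes did, or in WT, where 10.8% did. At an unadjusted p under 0.05, which 10.7% of all genes had in KO and 28.5% in WT, there was 1 gene in KO (Krt17, 2.05 ± 0.76, adjusted p = 0.378) and there were 4 in WT. The 4 were Sprr1a (-2.04 ± 0.67, adjusted p = 0.0562), Upk2 (-2.02 ± 0.90, 0.146), Krt17 (1.73 ± 0.73, 0.125) and Krt7 (-0.51 ± 0.21, 0.116). Sprr1a of the WT day 10 libraries, at 2.903 to 23.8 CPM, did not overlap the WT day 5 libraries, at 41.4 to 79.5 CPM, and DESeq2 called it (log2 fold change -2.03, adjusted p = 0.0412) and no other member in WT, and none in KO. The value of Sprr1a was -1.31 (adjusted p = 0.966) without WT day 10 replicates 2 and 3. Of all genes, 2.69% had WT day 10 libraries below WT day 5 with no overlap.

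Between genotypes, no member passed edgeR's test at day 0, day 5 or day 10, and DESeq2 called none either. Of all genes, 4.18% passed at day 0, 0.146% at day 5 and 1.41% at day 10. At an unadjusted p under 0.05 stood 15.6%, 14% and 14.7% of all genes at day 0, day 5 and day 10. The members there numbered 0 at day 0, 1 at day 5 (Krt80, 0.81 ± 0.31, adjusted p = 0.289) and 3 at day 10. Those 3 were Krt15 (2.31 ± 0.89, adjusted p = 0.225), Krt4 (2.37 ± 0.98, 0.268) and Sprr1a (1.42 ± 0.66, 0.322). Sprr1a had 25.7 to 47.3 CPM in KO and 2.903 to 23.8 CPM in WT at day 10, with no overlap; 1.49% of all genes were higher in KO with no overlap at that day. Pld4 did not follow the labels at day 0.

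The genotype comparison at day 10 depended on the WT day 10 libraries. Without WT day 10 replicate 4, whose uroplakin sum of 32.0 CPM was the highest of its group, 5 members were higher in KO: Upk3a by 4.65, Upk2 by 3.80, Upk1b by 3.61, Krt15 by 3.44 and Upk1a by 2.62 (adjusted p 0.0163 to 0.0327). In that fit 13.5% of all genes were called, 2045 of 15201, against 1.41% with all libraries. Without replicates 2 and 3 in its place, no member was called, and 0.451% of all genes were. The difference between genotypes in the response to obstruction passed the test for no member at day 5 or day 10, where 0.564% and 3.25% of all genes did, and DESeq2 called none. At an unadjusted p under 0.05, which 13.7% of all genes had at day 5 and 15.3% at day 10, there were 0 members at day 5 and 3 at day 10: Krt8 (0.61 ± 0.25, adjusted p = 0.226), Sprr1a (2.35 ± 0.99, 0.244) and Krt15 (2.82 ± 1.34, 0.319).

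Genes that work with keratins were described from lists. Keratin linkers and desmosome genes tie filaments to cell junctions, and 13 of 18 were tested. In KO 6 rose and 2 fell at day 5, and 8 rose and 3 fell at day 10, while in WT 5 rose and 4 fell at day 5, and 6 rose and 4 fell at day 10. Their median log2 fold change was 0.37, 0.50, 0.33 and -0.08 in this order, against 0.01, 0.04, 0.08 and 0.12 for all genes. Of all genes 22.4%, 28.3%, 31% and 37.8% rose, and 17%, 26%, 25.6% and 30.3% fell. Without WT day 10 replicates 2 and 3, 8 rose in KO and 6 in WT at day 5, and 3 fell in WT at day 10. In that fit 26.1% of all genes rose in KO and 35.2% in WT at day 5, and 24.1% fell in WT at day 10. Plec, the linker plectin, rose by 1.16 ± 0.18 in KO and 1.34 ± 0.18 in WT at day 10 (adjusted p = 2.24e-05 and 1.78e-06), and Ppl, the envelope and filament linker periplakin, by 1.39 ± 0.26 in KO and 1.35 ± 0.26 in WT (adjusted p = 0.000163 and 0.000101). The plakophilin Pkp4 fell, with -1.21 ± 0.19 in KO and -1.401 ± 0.195 in WT (adjusted p = 3.75e-05 and 3.1e-06), and Pkp1, a plakophilin of stratified epithelium, rose by 4.49 ± 1.05 in KO and 2.61 ± 0.93 in WT (adjusted p = 0.00133 and 0.0172).

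Cornified envelope partners, among them the proteins to which small proline-rich proteins are joined, had 8 of 22 genes tested. In KO 5 rose and none fell at either day, and in WT 5 rose at each day, with 1 fall at day 5 and 2 at day 10. Their median log2 fold change was 0.65, 0.92, 0.92 and 1.07 in KO at day 5 and day 10 and WT at day 5 and day 10, against the medians and shares of all genes given above. Without WT day 10 replicates 2 and 3, 9 were tested, and 6 rose in each of the 4 comparisons. In KO none fell at day 5 and 1 fell at day 10, and in WT 2 fell at day 5 and 1 at day 10. Of all genes 26.1%, 31.3%, 35.2% and 32.4% then rose, and 20.7%, 27.7%, 26.1% and 24.1% fell. Ivl, involucrin, had 11.1, 8.68, 4.68 and 5.18 CPM in KO at day 10, against 0.773, 0.119, 0.152 and 0.07795 CPM in KO at day 0, a log2 fold change of 4.67 ± 0.91 (adjusted p = 0.000259). In WT it had 3.51, 1.83, 0.302 and 5.61 CPM at day 10, against 0.0865, 0, 0.897 and 0.172 CPM at day 0, a log2 fold change of 3.28 ± 0.91 (adjusted p = 0.00341), or of 3.995 (adjusted p = 0.000593) without WT day 10 replicates 2 and 3. KO libraries did not overlap day 0, while WT day 10 replicate 3 lay within its range. Anxa1, annexin A1, rose by 2.498 ± 0.38 in KO and 3.84 ± 0.397 in WT at day 10 (adjusted p = 1.99e-05 and 8.21e-08). Its WT day 10 libraries had 86.1, 277, 166 and 58.6 CPM, highest in replicates 2 and 3, the libraries with neutrophil markers, and without these the WT value was 2.85 (adjusted p = 1.15e-07). S100a11, a calcium-binding envelope protein, rose by 1.49 ± 0.25 in KO and 1.83 ± 0.25 in WT, and Sbsn, suprabasin, by 1.14 ± 0.27 in KO and 0.98 ± 0.26 in WT. Tgm1, a cross-linking transglutaminase named after its values were seen, rose in KO and fell in WT at day 5, with 0.595 ± 0.23 and -0.71 ± 0.23 (adjusted p = 0.043 and 0.0122). The difference between those responses was 1.301 ± 0.32 at day 5 (adjusted p = 0.0707) and 1.24 ± 0.32 at day 10 (adjusted p = 0.0351). Without WT day 10 replicates 2 and 3 these were 1.27 (adjusted p = 0.0276) and 1.19 (adjusted p = 0.171). At day 0, where Pld4 did not follow the labels, Tgm1 differed by -0.97 ± 0.23 between libraries labelled KO and WT (adjusted p = 0.0164).

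Urothelial regulators and markers outside the set had all 16 genes tested. In KO 9 rose and 1 fell at day 5, and 10 rose and 2 fell at day 10; in WT 7 rose and 2 fell at day 5, and 5 rose and 3 fell at day 10. Their median log2 fold change was 1.08, 1.298, 0.81 and 0.40 in the same order, beside the values of all genes above. Without WT day 10 replicates 2 and 3, 10 rose and 3 fell in KO at day 5. In that fit 3 also fell in KO at day 10 and in WT at day 5, beside its shares of all genes given above. Klf4, a transcription factor of differentiating epithelium, rose by 1.86 ± 0.18 in KO and 1.68 ± 0.18 in WT at day 10 (adjusted p = 1.13e-07 and 1.27e-07). Elf3, an epithelial transcription factor, rose by 2.28 ± 0.27 in KO and 2.07 ± 0.27 in WT at day 10 (adjusted p = 1.41e-06 and 1.47e-06). Klf5, a regulator of epithelial progenitors, rose by 2.87 ± 0.43 in KO and 2.14 ± 0.404 in WT at day 10 (adjusted p = 1.85e-05 and 9.57e-05). Snx31, a sorting nexin of mouse urothelium named after its values were seen, fell in WT, with -2.08 ± 0.53 at day 5 and -3.31 ± 0.56 at day 10 (adjusted p = 0.00251 and 3.13e-05). Without WT day 10 replicates 2 and 3 the WT day 10 value was -2.46 (adjusted p = 0.000165). Snx31 had 3.79, 0.507, 1.09 and 8.89 CPM in the WT day 10 libraries, against 44.4, 33.4, 34.001 and 30.5 CPM in WT day 0. In KO it had 9.82, 8.85, 4.46 and 8.48 CPM at day 10, against 21.1, 14.9, 23.9 and 6.47 CPM at day 0, and its fold changes of -0.87 ± 0.52 and -1.07 ± 0.52 at day 5 and day 10 did not pass the test (adjusted p = 0.186 and 0.0879), while without WT day 10 replicates 2 and 3 they were -0.87 (adjusted p = 0.042) and -1.07 (adjusted p = 0.0114). At day 0 the KO libraries all lay below the WT libraries, with a log2 difference, KO over WT, of -1.098 ± 0.51 (adjusted p = 0.304), or of -1.09 (adjusted p = 0.0486) without WT day 10 replicates 2 and 3. The difference between the responses was 1.203 ± 0.73 at day 5 and 2.24 ± 0.74 at day 10 (adjusted p = 0.46 and 0.112).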

How the data were processed

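Kidney RNA was measured in 24 libraries. Per the labels' protocols, RNA was extracted with TRIzol and libraries were made with a stranded TruSeq mRNA kit and sequenced on a NextSeq500. The submitters' processing notes name bcl2fastq 2.16, STAR 2.5, Cufflinks and the genome build mm9. The authors deposited a table of raw counts per gene and a table of FPKM values; the counting tool, its annotation and its use of strand are not given in the sources used here. CPM and all log2 fold changes were computed here from the deposited counts.

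The filter on low counts was filterByExpr (minimum count 10, minimum total 15), and 15080 genes passed it. A single model over the 6 groups, with TMM factors and 18 residual degrees of freedom, was fitted in edgeR 4.0.16 (R 4.3.3), and 11 comparisons were tested by its quasi-likelihood test with Benjamini-Hochberg adjustment over all genes; a call is an adjusted p under 0.05. On counts simulated for WT UUO day 5 against day 0 over 15080 genes, 54% of genes changed 2-fold, 96% changed 4-fold, 98% changed 8-fold and 98% changed 16-fold were recovered, and 0.0538% of unchanged genes were called. The simulation gave each gene the spread typical of its expression level. These shares therefore may not hold for genes with wider spread between libraries, such as Krt5 and the uroplakins of the plaque. Alternatives, 34 in all, included DESeq2 1.42.0, limma 3.58.1 on FPKM and leaving out each library. Intervals and floors, at 95% and 3 counts, cover counting error only. All 4 same-numbered pairs of libraries correlated above 0.1 only for KO against WT at day 10 (0.141 to 0.306) and for WT day 10 against day 5 (0.105 to 0.361). The main model did not pair libraries in any comparison, these included. The replicate number entered only as a block in an alternative setting. The labels do not say what the numbers mark.

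All 72 genes were accounted for, and tested genes called in some comparison are given by library, the others by range or total count; each further list names up to 4 genes with the lowest adjusted p in KO at day 10. A gene that this rule would name is not reported here. The set, the gene lists and the ratios were chosen with earlier results of these data known.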

Additional observations from a re-analysis of the deposited data

Results flagged for a closer look

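In 17 of 138 groups of 4 libraries, the highest or lowest library of a tested gene lay further from the others than Dixon's 95% limit allows. The chance rate of about 1 in 20 holds for normally distributed values only. These groups include some at 0 throughout, which cannot be flagged, and lone counts among zeros, which always are. The number flagged is therefore no measure of an excess over chance. KO day 5 replicate 3 was high for Krt5 (60.7 CPM), Krt14 (22.4 CPM), Krt19 (90.4 CPM) and Sprr1a (76.1 CPM). WT day 10 replicate 4 was high for Upk1b (14.2 CPM), Upk2 (3.28 CPM) and Upk3a (4.34 CPM), and WT day 10 replicate 2 for Sprr2f (57.8 CPM). Krt80 was low in KO day 0 replicate 2 (10.0 CPM), Upk1a in KO day 10 replicate 3 (3.33 CPM), and Krt222 was high in KO day 0 replicate 4 (2.18 CPM) and low in KO day 10 replicate 3 (0.699 CPM). Krt8 was high in WT day 0 replicate 4 (104 CPM). A count or so in a group otherwise at 0 set apart Krt17 in KO day 0 replicate 1 (0.0859 CPM) and WT day 0 replicate 1 (0.0865 CPM), Krt4 in WT day 0 replicate 2 (0.0850 CPM) and Sprr2f in KO day 0 replicate 2 (0.119 CPM).

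Genes without a count in any library had values in the FPKM table, up to 12.1 FPKM for Sprr2a1, 12.1 FPKM for Sprr2a2 and 0.0405 FPKM for Krt85.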

How the results depend on the processing

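Over 11 comparisons and 34 settings, 361 recomputed counts of called genes stayed within 1.5 times the reported count and 13 did not. For WT day 10 against day 5, reported as 0, the count was 1 with no filter on low counts (Sprr2d), 1 with DESeq2, 2 with limma on log2(FPKM + 1) and 2 with limma on log2(FPKM + 0.1), and 0 to 7 when a single library was left out, with 7 without WT day 10 replicate 4. With a library left out, KO against WT gave 0 to 1 at day 5 (1 without WT day 5 replicate 4, Krt80) and 0 to 5 at day 10, and the genotype difference in the day 10 response 0 to 4, the highest of both without WT day 10 replicate 4. The cause was not tested. Except where a share is given, counts by setting here are not set beside the share of all genes called in the same fit. They describe the settings and are not results about the members. For KO against WT at day 10 without WT day 10 replicate 4, that share is given above. Obstructed against day 0, the range without a library was 15 to 17 in KO at day 5, 14 to 17 in KO at day 10, 13 to 16 in WT at day 5 and 10 to 16 in WT at day 10.

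With the replicate number as a block, the counts were 16, 15, 14 and 11 in this order and 0 in all other comparisons; Upk3a in WT at day 10 was then not called (-2.44, adjusted p = 0.0826). Leaving out WT day 10 replicates 2 and 3, chosen after seeing the data, gave 16, 17, 16 and 11. In that fit 26.1%, 31.3%, 35.2% and 32.4% of all genes rose, and 20.7%, 27.7%, 26.1% and 24.1% fell. Of 59 called gene and comparison pairs, 1888 recomputed values stayed called, 78 did not, and none changed sign. Limits are the 4 libraries a group, day 0 groups with 0 to 3 counts, and near-identical gene copies.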

Other observations

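Most listed intermediate filament genes other than keratins, nuclear lamins among them, rose with obstruction. Of 10 listed genes 9 were tested; in KO 8 rose at day 5 and 8 at day 10, and in WT 8 rose at day 5 and 9 at day 10, with none lower. Of all genes 22.4% and 28.3% rose in KO at day 5 and day 10, and 31% and 37.8% in WT. The median log2 fold change of the 9 was 1.02, 1.11, 1.42 and 2.18 in this order, against 0.01, 0.04, 0.08 and 0.12 for all genes. Without WT day 10 replicates 2 and 3, 8 of the 9 rose in WT at day 10, with a median of 1.82 against 0.12 for all genes, of which 32.4% rose. Vim, vimentin, a filament of mesenchymal cells, had 251, 293, 304 and 242 CPM in KO at day 10, against 48.6, 49.8, 35.2 and 62.6 CPM in KO at day 0, a log2 fold change of 2.47 ± 0.34 (adjusted p = 6.15e-06, edgeR). In WT it had 282, 844, 719 and 193 CPM at day 10, against 33.9, 45.8, 53.1 and 42.4 CPM at day 0, a log2 fold change of 3.54 ± 0.35 (adjusted p = 4.79e-08). The 2 highest of these were WT day 10 replicates 2 and 3, the libraries with neutrophil markers, and without them the WT value was 2.47 (adjusted p = 1.39e-08). Sync, syncoilin, rose by 2.68 ± 0.34 in KO and 2.69 ± 0.34 in WT at day 10, Nes, nestin, by 1.11 ± 0.19 in KO and 1.71 ± 0.19 in WT, and Lmna, lamin A/C of the nuclear lamina, by 1.04 ± 0.14 in KO and 0.88 ± 0.14 in WT.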
